A study of Mus musculus with 6 samples.

Results

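The genes described here are 32 genes of cholesterol synthesis, esterification and intracellular transport, measured in the livers of fasted mice lacking Creb3l3 and of wild-type mice. They were taken by gene name, with older symbols accepted: Acat2, Hmgcs1, Mvk, Pmvk, Mvd, Idi1 and Fdps of the early pathway, Fdft1, Sqle, Lss, Cyp51, Tm7sf2, Sc4mol, Nsdhl, Hsd17b7, Ebp, Sc5d and Dhcr7 of the late pathway, Soat1, Soat2 and Nceh1 of ester metabolism, the hydroxylase gene Ch25h, and Stard3, Stard4, Stard5, Npc1, Npc2, Npc1l1, Scp2, Osbp, Osbpl2 and Osbpl9 of transport. Of these, 30 had a probe on the array, with 53 of its 45281 probes, and Hmgcs1 and Fdft1 were not analysed here. The series compared 3 mice deficient in Creb3l3 (KO), which encodes the endoplasmic reticulum-bound transcription factor CREBH, with 3 wild-type littermates (WT). All 6 were C57BL/6 males given normal chow and fasted for 24 h, and each gave 1 liver RNA sample and 1 Illumina WG-6 array. The ages of the mice, the construct of the deletion and the cells in which it acts are not given in the sources used here.

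Cholesterol is built from acetyl-CoA through mevalonate to farnesyl diphosphate, which also feeds the dolichol, ubiquinone and prenylation branches, and then through squalene and lanosterol to cholesterol in the endoplasmic reticulum. Transcription of most of these enzymes is driven by SREBP2, which is held back when sterols bring SCAP to an INSIG protein. Surplus cholesterol is esterified by the SOAT enzymes, and START-domain, NPC, OSBP-related and sterol carrier proteins move sterols between lysosome, endoplasmic reticulum, peroxisome and plasma membrane. The liver is a main site of cholesterol synthesis and of its disposal in bile and lipoproteins.

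The arrays were not equally bright. Probes with a detection p under 0.05, referred to as detected, numbered 11846, 15867 and 4302 on the arrays of KO replicates 1 to 3, against 16224, 15832 and 15504 for WT replicates 1 to 3. Probes of at least 7 and at most 28 of the listed genes were detected on a KO array, with the 7 on that of KO replicate 3, and of 25 or 26 on a WT array. Over probes, Pearson's r between normalized log2 signals of KO replicate 3 and any other array was 0.676 to 0.697, and among the remaining 5 arrays it was 0.973 to 0.993. For this reason values are given for the 5 arrays without KO replicate 3, normalized on their own, and for each gene described with its signals the difference in all 6 arrays is given too. The probe for Creb3l3, the targeted gene, differed by -2.32 (SE 0.15) on the log2 scale, KO minus WT, with a limma adjusted p of 0.00271 in the 5 arrays. Over all 6 arrays it differed by -2.72 and did not pass (adjusted p of 0.574 in limma). Its place relative to the deleted part is not given. All 5 hepatocyte markers were detected on at least 1 of the 5 arrays, and 4 of them on all 5. Their summed normalized level was 46164 to 46769 in the 2 KO mice and 50977 to 53318 in the WT mice. The single markers were split: of the 4 tested, 2 had a higher and 2 a lower mean in KO. Their median log2 change was 0.008, from -0.38 to 0.16. The summed level of the endothelial list, 4 of 5 genes detected, was 570 to 676 in KO and 439 to 480 in WT mice. That of the Kupffer cell list, also 4 of 5 detected, was 1029 to 1157 in KO and 911 to 1019 in WT mice. The erythroid sum (2 of 3 genes detected) was 5339 and 13153 in KO replicates 1 and 2, against 11970 to 14480 in WT mice. The lymphocyte sum, with 0 genes detected on all 5 arrays, was 138 and 95.7, against 84.0 to 91.9. Bile duct cell (620 to 687 in KO, 425 to 643 in WT mice) and stellate sums (4233 to 4922, 4115 to 4514) overlapped. Krt19, Krt7 and Epcam of bile duct cells, Kdr of endothelium, Cd5l of Kupffer cells, Lrat of stellate cells and Cd3e of T cells were not detected on any of the 5 arrays. The part of these cell types in the results below was not tested, and in whole liver fewer cells of a type and less RNA per cell cannot be told apart.

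The comparison of KO with WT livers asked whether transcripts of this pathway differed without Creb3l3, and whether early, late and transport steps differed alike. Taken by the brightest tested probe of each gene, none of the genes passed the test: 0 of 26 tested genes had an adjusted p under 0.05 in limma, against 49 of 14345 tested probes (0.342%). That count rested on single mice, with 41 of 14122 probes (0.29%) without KO replicate 1, 2234 of 13351 (16.7%) without KO replicate 2, and 15, 9 and 9 probes without WT replicates 1, 2 and 3. A fit without either KO mouse sets 1 KO mouse against 3 WT mice, takes the spread from the WT mice alone and assumes that the KO mouse varies like them. A single probe of the set passed, 1 of 37 (2.7%), and it belongs to Scp2, whose transcript encodes a peroxisomal thiolase and a sterol carrier protein. An unadjusted p under 0.05 was reached by 4 genes (15.4%), Sc4mol with a higher and Tm7sf2, Stard5 and Scp2 with a lower mean in KO, against 12.1% of all tested probes. The median log2 change, KO minus WT, was -0.01 over the 26 genes, with 13 above 0 and 13 below, and -0.03 over all tested probes. Both KO mice lay below every WT mouse for 6 genes (23.1%), against 16.4% of all tested probes. The opposite held for 3 genes, Acat2, Sc4mol and Npc1 (11.5%), against 12.9%. The shares with an unadjusted p under 0.05 and with both KO mice above the WT mice were near those of the whole array. The share with both KO mice below was higher and rests on 6 genes, and that of passing probes (2.7% against 0.342%) rests on 1 probe. Neither difference in share was tested.

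By step, the median log2 change was 0.27 over 4 tested early genes, -0.06 over 10 late genes, 0.10 over 3 genes of ester metabolism and -0.07 over 9 transport genes. All 4 early genes had a higher mean in KO, but 0 of the 4 reached an unadjusted p of 0.05 in limma. Under median scaling, where the median over all tested probes was -0.42, Acat2 (-0.27) and Pmvk (-0.10) turned to a lower mean. Of the late genes 4 were higher and 6 lower in mean, and of the transport genes 3 were higher and 6 lower. In all 6 arrays 0 of 26 genes passed the adjusted threshold and 0 passed an unadjusted p of 0.05 in limma, the smallest adjusted p being 0.653, where 0 of 14494 probes (0%) and 558 probes (3.85%) did so. With KO replicate 3 included, 22 of 26 genes had a lower mean in KO, the median over all tested probes moved to -0.28 and that over the genes to -0.37.

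The 2 KO mice did not show the same pattern of synthesis genes. Over the 14 tested genes of the early and late pathway, the median deviation from the WT mean was -0.22 on the log2 scale in KO replicate 1. It was 0.40 in KO replicate 2. Over all tested probes the median deviation was -0.08 in KO replicate 1 and 0.01 in KO replicate 2. The 3 WT mice had medians of 0.04, -0.07 and 0.04 over the 14 genes. Each WT mouse is part of the mean it is set against, which makes its deviations smaller, so these WT medians are not a like measure for the KO mice. In KO replicate 2, 10 of the 14 (71.4%) lay above all 3 WT mice and 2 (14.3%), Tm7sf2 and Ebp, lay below them, against 31.3% and 28.2% of all tested probes. In KO replicate 1, 3 of the 14 (21.4%) lay above and 7 of the 14 below all WT mice, against 30.8% and 44.6% of all tested probes. For the transport genes the counts were equal in the 2 KO mice, with 1 of 9 (11.1%) above and 4 of 9 (44.4%) below all WT mice in each. The genes were not all the same: Osbp lay below only in KO replicate 1 and Stard4 only in KO replicate 2. Of all tested probes, 44.6% lay below in KO replicate 1 and 28.2% in KO replicate 2, and 30.8% and 31.3% lay above. KO replicate 1 had the dimmer of these 2 arrays, with a mean deposited signal of 149 against 246, and the part of that in the difference was not tested.

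Among the early genes, Fdps had the widest difference in mean. Fdps encodes the synthase of farnesyl diphosphate, the branch point to sterols. Its deposited signal was 191, 911 and 88.2 in KO replicates 1 to 3, against 508, 288 and 362 in WT replicates 1 to 3. Deposited signals follow array brightness, and after normalization its log2 signal was 8.23 and 9.37 in KO replicates 1 and 2, against 8.36, 7.73 and 8.16 in the WT mice. Only KO replicate 2 lay outside the WT range. The difference of 0.72 (SE 0.33) did not pass the test, with a limma adjusted p of 0.442. With KO replicate 3 it was -0.09 (adjusted p of 0.946 in limma).

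Acat2, which encodes the cytosolic thiolase that joins acetyl-CoA into acetoacetyl-CoA, had deposited signals of 134, 242 and 82.2 in KO mice, against 224, 175 and 178 in WT mice. Normalized log2 signals of 7.06 and 7.04 in KO replicates 1 and 2 lay above those of 6.87, 6.65 and 6.69 in WT mice. The difference was 0.31 (SE 0.16), with an adjusted p of 0.476 in limma, and it turned to -0.55 in all 6 arrays. Acat2 has a near-identical neighbour, Acat3, so its probe may not tell them apart. Idi1, the isomerase that makes dimethylallyl diphosphate, was dim: its signal was 98.6, 120.5 and 81.5 in KO mice, against 102, 104 and 94.8 in WT mice. The groups overlapped, with KO replicate 2 the highest, and the difference of 0.23 (SE 0.24) had a limma adjusted p of 0.718, with -4.06e-05 in all 6 arrays. Pmvk, the phosphomevalonate kinase gene, differed by 0.17 with an adjusted p of 0.795 in limma. Mvk and Mvd, which encode mevalonate kinase and the decarboxylase, were each detected on 1 array, a KO one, and were not tested.

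The Idi1 and Sc4mol promoters are printed here as examples of genes with their highest signal in KO replicate 2. The trait is not particular to them, since 10 of the 14 tested synthesis genes lay above all WT mice there. Lss (0.80) and Pmvk (0.59) deviated more from the WT mean in that mouse than Idi1 (0.57). Each runs from 250 bases before to 50 after the transcript start, from RefSeq on GRCm38.p6, in lower case with the letters CCAAT or, on the other strand, ATTGG in capitals. Idi1 is on the plus strand at chr13:8885356-8885655 and Sc4mol, now named Msmo1, on the minus strand at chr8:64733529-64733828.
Idi1: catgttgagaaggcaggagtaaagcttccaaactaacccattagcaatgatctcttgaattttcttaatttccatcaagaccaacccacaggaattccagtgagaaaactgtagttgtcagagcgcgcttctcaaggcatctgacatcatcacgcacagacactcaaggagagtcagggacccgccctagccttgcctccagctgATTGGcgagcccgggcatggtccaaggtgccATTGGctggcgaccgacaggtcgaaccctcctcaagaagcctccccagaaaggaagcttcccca
Sc4mol: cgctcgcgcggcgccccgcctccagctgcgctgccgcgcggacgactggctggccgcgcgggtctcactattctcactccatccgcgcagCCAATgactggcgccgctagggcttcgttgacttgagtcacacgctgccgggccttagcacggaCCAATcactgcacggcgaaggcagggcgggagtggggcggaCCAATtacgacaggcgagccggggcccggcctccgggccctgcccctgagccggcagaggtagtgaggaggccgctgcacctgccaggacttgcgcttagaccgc
Counted from the transcript start, the marked letters begin at -45 and -14 in Idi1, on the opposite strand, and at -160, -96 and -55 in Sc4mol. The RefSeq table held 30 promoters of 26 of the listed genes, among 32851 in all. Searched on both strands, CCAAT was in 24 of the 30 (80.0%) and in 37.4% of all promoters, and GGGCGG was also in 24 (80.0%), against 35.7%. TGACG, the core of the cAMP response element, was in 14 of 30 (46.7%), against 20.8%. A single spelling each was searched of the sterol regulatory element, found in 0 of 30, against 0.234%, and of the endoplasmic reticulum stress element, which contains CCAAT, found in 0 of 30, against 0.119%. Other spellings of these elements were not searched. These are matches of letters in a short window, and the shares were not matched for base composition.

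Among the late genes, Sc4mol had a higher and Tm7sf2 a lower mean in KO, and neither passed the adjusted threshold. Sc4mol encodes the C4-methylsterol oxidase. Its deposited signal was 167, 653 and 87.6 in KO mice, against 337, 286 and 275 in WT mice, and its log2 signal was 7.85 and 8.84 in KO replicates 1 and 2, against 7.65, 7.72 and 7.64 in WT mice. Both KO mice lay above the WT mice, KO replicate 2 by far the more. The difference was 0.68 (SE 0.27) with a limma adjusted p of 0.393, and in all 6 arrays it was -0.12. Tm7sf2 encodes a sterol C14-reductase of the endoplasmic reticulum and nuclear envelope. Its signal was 129.7, 165 and 85.0 in KO mice, against 253, 209 and 218 in WT mice. Both KO mice lay below the WT mice, here too with KO replicate 2 farther away: log2 signals were 6.91 and 6.18 in KO and 7.12, 7.06 and 7.17 in WT mice. The difference was -0.57 (SE 0.22), with an adjusted p of 0.393 in limma, and in all 6 arrays it was -1.17, with an adjusted p of 0.653.

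Sqle, which encodes squalene epoxidase, a rate-limiting enzyme of the late pathway, spread widely between the KO mice. Its signal was 106, 293 and 85.8 in KO mice, against 168, 114 and 142 in WT mice. The normalized log2 signal of 7.42 in KO replicate 2 was above the WT mice at 6.23, 5.36 and 6.11, and that of 5.6 in KO replicate 1 was among them. The difference was 0.61 (SE 0.49; limma adjusted p of 0.635), and 0.04 in all 6 arrays. Ebp, the sterol isomerase gene, had signals of 457, 1364 and 97.3 in KO mice, against 1664, 1371 and 1451 in WT mice. Its log2 signals of 10.04 and 10.01 in KO replicates 1 and 2 were below 10.24, 10.27 and 10.39 in the WT mice, a difference of -0.28 (SE 0.15) with an adjusted p of 0.493 in limma, and -0.38 in all 6 arrays. The other 6 tested late genes overlapped between the groups: Lss (0.29) and Dhcr7 (0.24) had a higher mean in KO, and Cyp51 (-0.15), Hsd17b7 (-0.11), Nsdhl (-0.09) and Sc5d (-0.03) a lower one. Lss makes lanosterol, Cyp51 demethylates it, Nsdhl and Hsd17b7 complete the removal of C4 methyl groups, and Sc5d and Dhcr7 act at the last steps.

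**Figure D1:**
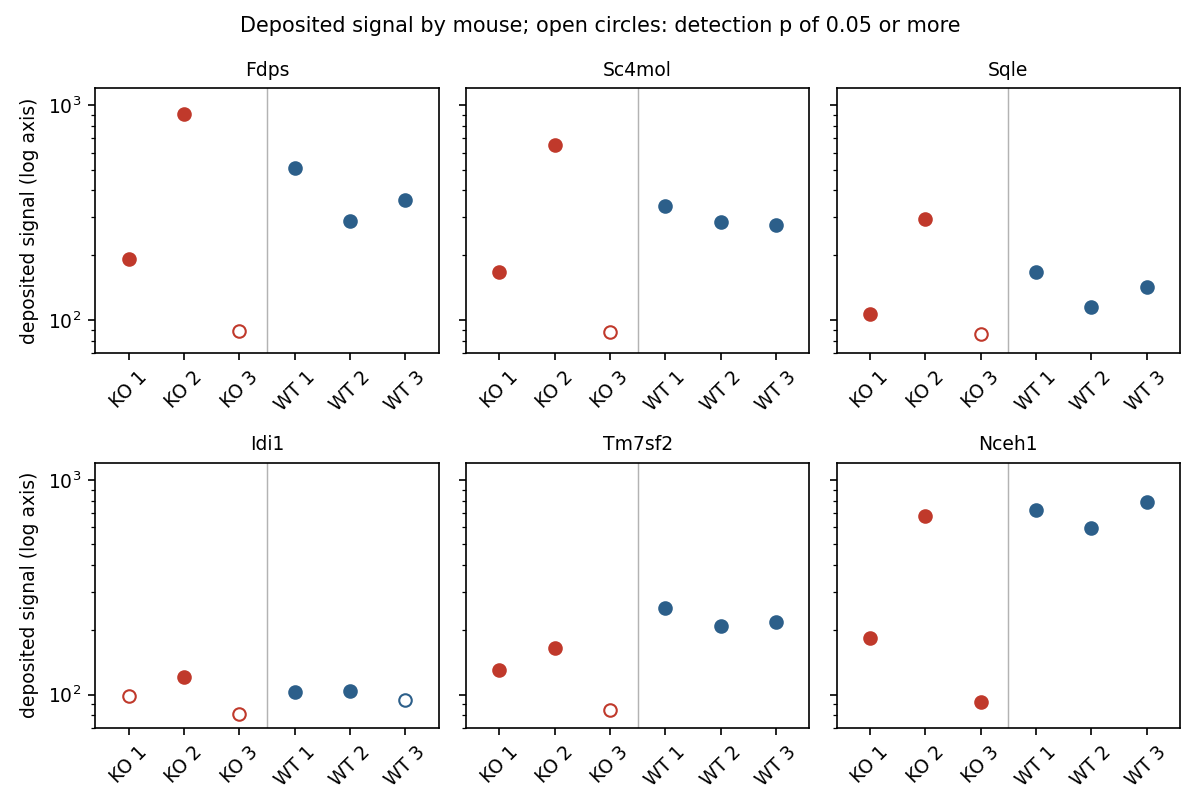
Deposited signal of named genes on a log axis (y axis, arbitrary units) for 3 KO mice and 3 WT mice (x axis), with a panel for each gene and open circles where the detection p was 0.05 or more. KO replicate 3 is the lowest for most genes and KO replicate 2 is the highest of all 6 for Fdps, Sc4mol and Sqle.

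In ester metabolism, the hydrolase gene Nceh1 had a lower mean in KO and the 2 acyltransferase genes a higher one, with no gene past the threshold. Nceh1 encodes a neutral cholesterol ester hydrolase known from macrophages. Its signal was 184, 680.1 and 91.9 in KO mice, against 724, 594 and 784 in WT mice. The log2 signal was 8.13 in KO replicate 1 and 8.91 in KO replicate 2, against 8.92, 9.0 and 9.44 in the WT mice, so KO replicate 2 only just fell short of the lowest WT mouse. The difference was -0.60 (SE 0.27) with a limma adjusted p of 0.419, and in all 6 arrays it was -0.63. In the fit of KO replicate 1 alone against the WT mice, which called 16.7% of all probes, it was -0.99 with an adjusted p of 0.0275 in limma. In that of KO replicate 2 alone it was -0.21, with an adjusted p of 0.759. Soat2, the cholesterol acyltransferase of hepatocytes and intestine, had signals of 208, 507 and 87.0 in KO mice, against 427, 428 and 329 in WT mice. Soat1, the acyltransferase found in most tissues, had 101, 109 and 80.8 in KO mice, against 104, 96.9 and 106 in WT mice. The groups overlapped for both after normalization, with differences of 0.28 (SE 0.19; limma adjusted p of 0.562) for Soat2 and 0.10 (SE 0.19; adjusted p of 0.843) for Soat1. The other probe of Soat2 differed by -0.19 (SE 0.17; limma adjusted p of 0.658), and in all 6 arrays the differences were -0.69 for Soat2 and -0.11 for Soat1. Ch25h, which makes the regulatory oxysterol 25-hydroxycholesterol, had signals of 89.3, 116 and 90.3 in KO mice, against 93.4, 96.2 and 83.5 in WT mice. It was detected in KO replicate 2 and, on the array left out, in KO replicate 3 (detection p of 0.031). It was not detected in KO replicate 1 (0.775) or on a WT array, where WT replicate 2 just missed at 0.052. Ch25h was not tested.

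Among the transport genes, 1 probe of Scp2 fell, and 2 other probes of the gene differed less and did not pass. Scp2 encodes, from alternative starts, a peroxisomal thiolase that shortens the side chain of bile acid precursors and a small sterol carrier protein. Its probe ILMN_1221684 had deposited signals of 947, 3038 and 174 in KO mice, against 7842, 5927 and 6539 in WT mice. Every KO mouse was below every WT mouse on this probe. Normalized log2 signals were 11.18 and 11.20 in KO replicates 1 and 2, against 12.57, 12.44 and 12.58 in WT mice. The probe fell by 1.34 (SE 0.15), or 2.5-fold, with a limma adjusted p of 0.022. The brightest probe, ILMN_2705886, had 3526, 9115 and 285 in KO mice, against 12964, 11787 and 12268 in WT mice. Its log2 signals of 13.02 and 12.82 in KO replicates 1 and 2 also lay below all WT mice, at 13.35, 13.42 and 13.51. Its difference was smaller, -0.50 (SE 0.16), and did not pass the test (adjusted p of 0.323 in limma), and in all 6 arrays it was -0.47.

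Another tested probe of Scp2, ILMN_2705881, had 2425, 5842 and 200.4 in KO mice, against 7786, 8141 and 7281 in WT mice. It differed by -0.42 (SE 0.19; limma adjusted p of 0.416). The remaining probe was detected in 2 WT mice and no KO mouse and was not tested. Within each mouse, the log2 signal of the probe that passed minus the mean of the other 2 tested probes was -1.57 and -1.30 in KO replicates 1 and 2, against -0.39, -0.73 and -0.55 in WT replicates 1 to 3. These differences of KO and WT mice did not overlap and their means differed by -0.88. This describes a probe singled out because it passed. A two-sided permutation test of the difference gave p of 0.2, the smallest possible with 2 KO and 3 WT mice. It therefore cannot decide the question, and no conclusion is drawn from it. The transcripts that each probe matches were not analysed here. In all 6 arrays the probe that passed in 5 differed by -1.01, with an adjusted p of 0.653 in limma. In the 5 arrays the call was also lost when any WT mouse was left out, with adjusted p of 0.106 to 0.128. The fits with 1 KO mouse and the spread of the WT mice alone gave 0.00645 for KO replicate 1 and 0.0393 for KO replicate 2.

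The Scp2 promoter is printed because Scp2 carried the single probe that passed, and because it holds the letters TGACG, shown in capitals. These letters are not particular to Scp2. They were in promoters of 13 of the 26 listed genes with a promoter, among them Cyp51, Hsd17b7 and Nsdhl, which did not pass. The part of these letters in the Scp2 difference was not tested. It lies on the minus strand at chr4:108118498-108118797 of GRCm38.p6, from RefSeq, and the capitals begin at -6 from the transcript start.
Scp2: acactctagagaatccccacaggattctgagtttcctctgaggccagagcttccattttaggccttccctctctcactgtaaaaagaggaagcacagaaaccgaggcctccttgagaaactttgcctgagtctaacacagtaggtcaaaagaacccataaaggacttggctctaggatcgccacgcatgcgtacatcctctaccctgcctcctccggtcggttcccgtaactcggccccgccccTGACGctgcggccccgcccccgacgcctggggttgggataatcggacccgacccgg

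No other transport gene passed. Stard5, whose START-domain protein binds cholesterol and bile acids, had signals of 245, 647 and 88.4 in KO mice, against 854, 799.6 and 706 in WT mice. Its log2 signals of 8.87 and 8.82 in KO replicates 1 and 2 lay below 9.20, 9.47 and 9.26 in the WT mice. The difference of -0.47 (SE 0.16) did not pass (limma adjusted p of 0.355), and a dimmer probe of the gene differed by -0.04. The brighter probe was at -1.25 in all 6 arrays (adjusted p of 0.653 in limma) and at -1.20 under median scaling (0.776). Osbpl9, an oxysterol-binding protein relative of the Golgi, had 404, 1285 and 93.0 in KO mice, against 1565, 1172 and 1187 in WT mice. After normalization both KO mice were below the WT mice, by -0.20 in mean (SE 0.15; adjusted p of 0.602 in limma), and by -0.56 in all 6 arrays.

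The lysosomal exporters Npc1 and Npc2, which hand cholesterol from the lysosome lumen to its membrane, differed little. Npc1 had 559, 1688 and 99.0 in KO mice, against 1592, 1362 and 1268 in WT mice, and its log2 signals of 10.38 and 10.34 in KO replicates 1 and 2 lay just above the highest WT value of 10.27. The difference was 0.15 (SE 0.15; limma adjusted p of 0.703), and -0.60 under median scaling. Npc2 had 135, 238 and 89.2 in KO mice, against 272, 212 and 202 in WT mice, with overlapping groups and a difference of -0.07 (SE 0.16; limma adjusted p of 0.873). Stard4, a soluble carrier of cholesterol to the endoplasmic reticulum and a known SREBP2 target, had 132, 204 and 85.1 in KO mice, against 235, 181 and 210.02 in WT mice. Its groups overlapped too, with a difference of -0.10 (SE 0.18; limma adjusted p of 0.841). Over all 6 arrays the differences were 0.01 for Npc1, -0.09 for Npc2 and -0.81 for Stard4. Osbp (0.06), Osbpl2 (-0.07) and the late endosomal Stard3 (0.01) overlapped as well. Npc1l1, the sterol uptake protein of intestine and, in humans, of the canalicular membrane, was detected on 0 of 6 arrays, with signals of 81.6, 88.0 and 87.5 in KO and 94.9, 88.5 and 91.5 in WT mice, and was not tested.

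Genes around the pathway were taken from 3 further lists. Of the 21 genes of sterol uptake, efflux and control, 19 were tested, 0 rose and 1 fell, where 0.342% of all tested probes were called. An unadjusted p under 0.05 was reached by 7 of the 19, 6 of them lower in KO, against 12.1% of all tested probes. The gene that fell was Insig2, whose protein holds SCAP in the endoplasmic reticulum. Its signal was 615, 2526 and 118 in KO mice, against 5409, 4256 and 4282 in WT mice, each KO mouse below each WT mouse. On the log2 scale the transcript fell by 1.25 (SE 0.18), or 2.38-fold, with a limma adjusted p of 0.0412. A dimmer probe of Insig2 fell by 1.53 (limma adjusted p of 0.0227), and the other, at -1.05, did not pass (0.0579). In all 6 arrays Insig2 differed by -1.14 with an adjusted p of 0.653 in limma, and in the fit of KO replicate 2 alone against the WT mice by -1.02, with an adjusted p of 0.0741. Without any 1 of the WT mice the adjusted p was 0.191 to 0.230, at -1.26 to -1.25. Cyp7a1, Por and Lipa had both KO mice below all WT mice but did not pass: the rate-limiting enzyme of bile acid synthesis, Cyp7a1, was at -0.79 (adjusted p of 0.241), Por, the reductase that passes electrons to Cyp51 and Sqle, at -0.79 (0.255), and Lipa, the lysosomal acid lipase, at -0.60 (0.333). In the fit of KO replicate 1 alone against the WT mice, Cyp7a1 was at -1.0 and Por at -1.08. In that of KO replicate 2 alone they were at -0.58 and -0.50. Over all 6 arrays the differences were -1.82 for Cyp7a1, -1.14 for Por and -0.56 for Lipa, each with an adjusted p of 0.653.

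Of 10 genes of the non-sterol branch 8 were tested, and 0 rose and 0 fell at an adjusted p of 0.05 in limma or at an unadjusted one. The smallest p belonged to Fntb, the beta subunit of farnesyltransferase, at -0.34 with an adjusted p of 0.481. Of 13 other sterol transfer genes 6 were tested and 0 passed in limma. An unadjusted p under 0.05 was reached by 1 of the 6, where 12.1% of all tested probes reached it: Cav1, which encodes caveolin-1 of endothelium and other cells, at -0.42 with an adjusted p of 0.388.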

How the data were processed

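Total RNA from the livers of 6 mice was amplified, labelled with biotin and measured on Illumina WG-6 arrays. Groups and replicate numbers came from the sample titles, and each replicate is a separate mouse. The deposited array tables hold a mean intensity per probe on a linear scale, by its values neither normalized nor background-corrected, and a detection p-value that the authors' software computed per array. Per the submitters' processing notes that software was BeadStudio 3. The authors' value table holds linear intensity values that, set against the array tables, equal their signals after quantile normalization; they are not centred, and single-colour values have no direction. Its column medians were 91.69, 91.72 and 91.64 for KO and 91.72, 91.73 and 91.71 for WT mice, and its column for WT replicate 2 holds the array of WT replicate 3 and the reverse. It served as an alternative only.

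The neqc function of limma 3.58.1 (R 4.3.3) corrected background with an offset of 16, made quantiles equal across arrays and took log2. Only probes detected (p under 0.05) on 3 or more arrays were tested with lmFit and eBayes, genotype as the only term, two-sided, with Benjamini-Hochberg adjustment over all tested probes and calls at an adjusted p under 0.05. A gene is given by its tested probe with the highest mean signal. Figures were drawn with matplotlib 3.10.9.

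The 32 genes, the step groups, the further lists and the leaving out of KO replicate 3 were chosen with earlier results of these data known. Described with full values are genes that passed, the 3 genes of each step with the smallest p, and Acat2, Idi1, Sqle, Ebp, Soat2, Npc1, Npc2, Npc1l1, Scp2, Stard4 and Ch25h whatever their values. Of each further list, up to 4 genes with the smallest p could be named. Alternatives changed the normalization, background correction, filter, variance model, array weights, probe choice, replicate block and the mice included. The small number of arrays limits the precision.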

Additional observations from a re-analysis of the deposited data

How the results depend on the processing

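In the 5 arrays no listed gene passed by its brightest probe under any alternative other than leaving out KO replicate 2, which leaves 1 KO mouse and the spread of the WT mice alone, where Nceh1 did, so that leaving out each mouse gave 0 to 1 genes and 0 to 2 probes of the set. The Scp2 probe ILMN_1221684 stayed lower in KO under all 17 alternatives, from -2.06 to -1.01, and kept its call in 9, of which 2 had a single KO mouse. It lost it, leaving 0 probes of the set, under median scaling (adjusted p of 0.776), with no filter on dim probes (0.0897), in all 6 arrays (0.653), with the replicate number as a block (0.052) and with that block after exchanging WT replicates 2 and 3 (0.0514), and also when any WT mouse was left out (0.106 to 0.128). Insig2 stayed lower under all 18 alternatives, from -1.99 to -1.02, and kept its call in 8. Same-numbered KO and WT arrays did not deviate together (r of -0.132 for replicate 1 and -0.133 for replicate 2). With 2 KO mice, deviations from their mean are mirror images, so these r cannot decide whether the numbers are pairs. Genotype was kept as the only term. The replicate block gave 47 called probes and the exchanged block 56, against 49. Called probes numbered 4 under median scaling, 83 under cyclic loess, 85 with no background correction, 108 with an offset of 50, 83 from the authors' value table, 1 with no filter, 122 with trend and robust variance, 32 with array weights, 0 in all 6 arrays, and 9 to 2234 when a mouse was left out. In all 6 arrays they numbered 3 under cyclic loess, 1 when detection on every array was required, 5 with trend and robust variance, 2832 with array weights and 0 to 49 when a mouse was left out. Array weights there called 2 listed genes, Nceh1 and Scp2, by 3 probes, and leaving out a mouse called 0 to 1 probes of the set.

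Directions that turned belonged to genes that did not pass. Under median scaling they were Acat2 (-0.27), Pmvk (-0.10), Lss (-0.055), Dhcr7 (-0.35), Soat2 (-0.43), Stard3 (-0.46), Npc1 (-0.60) and Osbp (-0.52), and under cyclic loess Nsdhl (0.043) and Sc5d (0.0078). The replicate block turned Stard3 (-0.10) and Osbp (-0.035), the exchanged block Soat1 (-0.00035) and Osbp (-0.042), and the mean over probes Soat1 (-0.014) and Stard3 (-0.080). In all 6 arrays Acat2 (-0.55), Pmvk (-0.35), Idi1 (-4.06e-05), Fdps (-0.089), Lss (-0.32), Sc4mol (-0.12), Nsdhl (0.44), Sc5d (0.42), Dhcr7 (-0.28), Soat1 (-0.11), Soat2 (-0.69), Stard3 (-0.45), Osbp (-0.90) and Fntb (0.24) turned. When a mouse was left out, the log2 change ran from -0.78 to 0.51 for Cyp51, -0.40 to 0.18 for Hsd17b7, -0.22 to 0.83 for Lss, -0.23 to 0.082 for Nsdhl, -0.23 to 0.35 for Osbp, -0.24 to 0.62 for Pmvk, -0.14 to 0.065 for Sc5d, -0.30 to 1.57 for Sqle, -0.10 to 0.11 for Stard3 and -0.26 to 0.046 for Stard4. The causes were not tested. Genes near background, such as Idi1, Soat1, Ch25h and Npc1l1, allow differences to be seen least.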
